A study of Mus musculus with 12 samples.

Results

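Crypt stem cell genes are described here as 10 mouse genes that are used to mark or that act in the stem cells at the base of intestinal crypts, namely Lgr5, Olfm4, Ascl2, Smoc2, Axin2, Lrig1, Rnf43, Znrf3, Sox9 and Tnfrsf19. They were chosen by name, and all 10 were found by their Ensembl identifiers among the 55487 genes of the count tables. All 10 also passed the filter on low counts that left 19581 genes for testing. RNA was sequenced from freshly isolated crypts of C57BL/6 mice (tissue) and from intestine-derived monolayers grown for 24 h in control medium, each from the small intestine (SI) and the large intestine (LI). Each of the 4 combinations of region and preparation had 3 libraries. The labels name no transgene, treatment or age. Each tissue library was 1 mouse and each monolayer library was a pool of wells. Monolayer libraries therefore vary as pools of wells do, and tissue libraries as mice do. The 4 groups were fitted together, so that p-values rest on a spread estimated over both kinds of library. Monolayers were seeded as crypts on Matrigel, in both regions. The medium for the first hours held Wnt3a, R-spondin-1, EGF, CHIR-99021 (a GSK3 inhibitor that activates Wnt signalling), LDN-193189 (a BMP receptor inhibitor) and Y-27632 (a ROCK inhibitor). The medium that replaced it held Wnt3a, EGF, Noggin and R-spondin-1. Crypts of the tissue groups are described as freshly isolated, and no culture of them in either medium is stated. By the study's methods, the SI crypts seeded for monolayers came from the jejunum. LI crypts were released with digestive enzymes in the presence of Y-27632, and neither is described for the release of SI crypts. Region and isolation method therefore cannot be told apart.

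Stem cells at the crypt base divide throughout life and replace the intestinal epithelium. Wnt ligands bind Frizzled and Lrp5 or Lrp6 receptors and stabilise beta-catenin, which acts with TCF factors on target genes. R-spondin binds Lgr receptors and keeps the ubiquitin ligases Rnf43 and Znrf3 from removing Frizzled from the membrane. Axin2 and Rnf43 are themselves Wnt targets and dampen the pathway, and Ascl2 is a transcription factor needed for stem cell identity.

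Among these genes, 6 fell in LI monolayers relative to LI tissue, by 3.19-fold for Lrig1 and by between 11.0-fold for Lgr5 and 72.8-fold for Ascl2. By the same criteria, 23.5% of all tested genes fell there. In SI monolayers relative to SI tissue, 2 fell, Olfm4 by 67.9-fold and Axin2 by 2.26-fold. That count lies near the share of all tested genes that fell in SI monolayers, 16.4%. The fold change of Lgr5 between SI monolayers and SI tissue, 1.09, did not pass the test. Rnf43 and Znrf3 had log2 fold changes of less than 1 in size in both regions. In these bulk samples, fewer cells of a type and less RNA per cell cannot be told apart.

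Libraries held between 59016196 and 76216530 counts, and 3 counts corresponded to between 2.67 and 3.53 normalized counts (counts divided by 1 size factor per library). Counting error alone is covered by that limit. Between 73.4% and 77.4% of counts from 1 to 20 were even numbers, so counts may not be single fragments, and whether both mates of a pair were counted is not given in the sources used here. Epithelial markers were high in all 12 libraries, with Epcam between 81696 and 133955 normalized counts. The LI marker Hoxb13 was higher in every LI library than in every SI library. Mitochondrial genes took between 4.56% and 9.16% of counts in SI tissue, between 2.25% and 2.59% in LI tissue and between 0.472% and 0.750% in monolayers. The summed level of 12 Paneth cell genes ranged from 380466 to 1887420 normalized counts in SI tissue and from 579405 to 627744 in SI monolayers.

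Promoters are shown for members that fell together in LI monolayers, so that their sequences can be set beside their levels. RefSeq (GRCm38.p6) gave 8 gene starts for 6 of the 10 members (Olfm4, Ascl2, Axin2, Lrig1, Rnf43 and Tnfrsf19). The 250 bases before each start were searched on both strands for 2 TCF/LEF motifs, CTTTGAT and CTTTGTT, and for the E-box CAGCTG of the kind that Ascl2-type factors bind. Capitals mark the matches. The sequences are 5′ to 3′ on the gene's strand and lie at chr7:142969265-142969514 (minus strand, Ascl2), chr11:108920099-108920348 (plus strand, Axin2) and chr14:61037988-61038237 (minus strand, the shorter start of Tnfrsf19). The first 2 regions overlap no annotated exon, and the region of Tnfrsf19 overlaps an exon of Gm41168.
Ascl2: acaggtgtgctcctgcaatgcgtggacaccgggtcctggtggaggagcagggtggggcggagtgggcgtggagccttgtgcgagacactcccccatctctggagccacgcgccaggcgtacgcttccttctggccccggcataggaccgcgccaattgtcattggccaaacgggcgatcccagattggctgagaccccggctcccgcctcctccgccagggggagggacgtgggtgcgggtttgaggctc
Axin2: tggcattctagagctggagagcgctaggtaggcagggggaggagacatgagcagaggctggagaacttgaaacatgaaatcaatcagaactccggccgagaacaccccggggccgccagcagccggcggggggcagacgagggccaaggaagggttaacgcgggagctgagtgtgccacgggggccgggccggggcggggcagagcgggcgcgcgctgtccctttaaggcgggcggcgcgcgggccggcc
Tnfrsf19: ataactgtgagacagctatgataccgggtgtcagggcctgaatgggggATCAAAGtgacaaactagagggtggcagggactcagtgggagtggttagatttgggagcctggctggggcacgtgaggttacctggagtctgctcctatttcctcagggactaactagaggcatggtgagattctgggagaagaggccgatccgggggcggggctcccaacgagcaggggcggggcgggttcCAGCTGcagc
Only the Tnfrsf19 start shown held a match among these 8 windows, a TCF/LEF match read on the opposite strand as ATCAAAG and 1 E-box match. Of all 32851 RefSeq windows of this length, 3.21% held CTTTGAT, 5.03% held CTTTGTT and 13.0% held CAGCTG. The windows of Axin2 and Ascl2 held none of these letters, and enhancers lie outside what was searched.

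Lgr5, the R-spondin receptor that defines the active stem cells (chr10:115450311-115587780, minus strand), was measured at 790.4, 520.2 and 673.6 normalized counts in SI tissue and at 717, 742 and 647 in SI monolayers. It was at 304, 300.2 and 264 normalized counts in LI tissue and at 13.5, 32.1 and 31.6 in LI monolayers. The SI groups overlapped, all SI libraries lay above all LI tissue libraries, and LI monolayers lay below every other library. By edgeR's quasi-likelihood test with Benjamini-Hochberg adjustment over all tested genes, which was used for all fold changes and adjusted p-values here, the log2 fold change of SI monolayers against SI tissue was 0.12 (SE 0.17, adjusted p = 0.573). Against LI tissue, LI monolayers fell by 3.45 on the log2 scale (SE 0.24, adjusted p = 1.53e-09). Only 14, 28 and 32 counts stand behind the 3 LI monolayer values.

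Ascl2, a transcription factor that maintains Lgr5 stem cells (chr7:142966829-142969264, minus strand), was at 733, 579.6 and 736 normalized counts in SI tissue and at 421, 387 and 376 in SI monolayers. It was at 578, 536 and 619.5 in LI tissue and at 0, 13.8 and 9.88 in LI monolayers. The tissue groups overlapped, SI monolayers lay below both, and the LI monolayers were lowest. The first LI monolayer library held 0 counts, which allows up to 2.89 normalized counts. In LI monolayers Ascl2 fell by 6.19 on the log2 scale (SE 0.37, adjusted p = 2.95e-09), the largest fall of the 10 genes there. It fell by 5.64 without the first LI monolayer library and fell by 6.87 without the second. In SI monolayers its log2 fold change was -0.76 (SE 0.23, adjusted p = 0.0127), short of the minimum of 1 that a call required.

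Smoc2, a secreted matricellular protein of the stem cell signature (chr17:14279506-14404790, plus strand), was at 6293, 5398 and 7021 normalized counts in SI tissue and at 3576, 3791 and 3438 in SI monolayers. It was at 2744, 2497 and 3135 in LI tissue and at 105, 126 and 162 in LI monolayers. None of the 4 groups overlapped in Smoc2. Smoc2 fell by 4.37 on the log2 scale in LI monolayers (SE 0.16, adjusted p = 6.25e-11), and its log2 fold change in SI monolayers was -0.76 (SE 0.12, adjusted p = 0.000177). Smoc2 is also made by some mesenchymal cells. The summed level of 12 mesenchymal genes was between 4141 and 6949 normalized counts in LI tissue and between 5556 and 7261 in LI monolayers. Within that list, 3 genes were called higher and 4 lower in LI monolayers.

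Tnfrsf19 (Troy), a receptor of the TNF family that marks Lgr5 stem cells (chr14:60963875-61046490, minus strand), was at 376, 337 and 434 normalized counts in SI tissue and at 319, 266 and 271 in SI monolayers. It was at 171, 178 and 89.3 in LI tissue and at 13.5, 13.8 and 7.91 in LI monolayers. All 4 groups were apart, and LI monolayers were lowest. In LI monolayers Tnfrsf19 fell by 3.58 on the log2 scale (SE 0.30, adjusted p = 2.12e-08). In SI monolayers the log2 fold change of -0.39 did not pass the test (SE 0.22, adjusted p = 0.135).

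Axin2, a scaffold of the beta-catenin destruction complex and a broad Wnt target (chr11:108920349-108950783, plus strand), was at 4300.2, 3973 and 4706 normalized counts in SI tissue and at 1857, 1932 and 1816 in SI monolayers. It was at 2236, 2287 and 1976 in LI tissue and at 84.7, 152 and 122 in LI monolayers. The groups did not overlap. Axin2 fell by 1.18 on the log2 scale in SI monolayers (SE 0.11, adjusted p = 5.89e-07) and fell by 4.15 in LI monolayers (SE 0.14, adjusted p = 3.92e-12).

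Olfm4, a secreted glycoprotein and SI stem cell marker (chr14:79984081-80023139, plus strand), was at 85462, 71878 and 94859 normalized counts in SI tissue and at 1325, 1165 and 1138 in SI monolayers. It was at 451, 11.0 and 5.36 in LI tissue and at 3.85, 273 and 176 in LI monolayers. The SI groups lay far apart, whereas the LI groups overlapped and each held libraries that differed from the others by more than 10-fold. Olfm4 fell by 6.09 on the log2 scale in SI monolayers (SE 1.19, adjusted p = 0.00204). In LI monolayers the log2 fold change was -0.01 (SE 1.28, adjusted p = 0.996), and without the first LI tissue library it was 4.19 (adjusted p = 0.0371).

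Genes of the SI were present at low levels in the same LI libraries. As a share of the SI tissue mean, Olfm4 stood at 0.537% in the first LI tissue library and at 0.0131% and 0.00637% in the others. Sis, the brush border sucrase-isomaltase, stood at 0.815%, 0.295% and 0.0912% in the same order. In LI monolayers Olfm4 stood at 0.00458%, 0.325% and 0.209%, and Sis at 0.412%, 0.837% and 0.673%. The library with the highest Olfm4 was therefore also the highest in Sis in each LI group. The summed level of 6 SI region genes ranged from 1294 to 4632 normalized counts in LI tissue and from 2365 to 4017 in LI monolayers, against 418173 to 650520 in SI tissue. Tmprss15, the enteropeptidase of the proximal SI, was at 0 counts in all LI libraries but the first of LI tissue. Fabp6, an ileal bile acid binding protein, was unlike Olfm4 and Sis highest in the second LI tissue library and lowest in the first. It stood at between 14.0% and 21.1% in LI tissue, above the other 5 genes. Their part in the level of Olfm4 in LI was not tested.

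**Figure D1:**
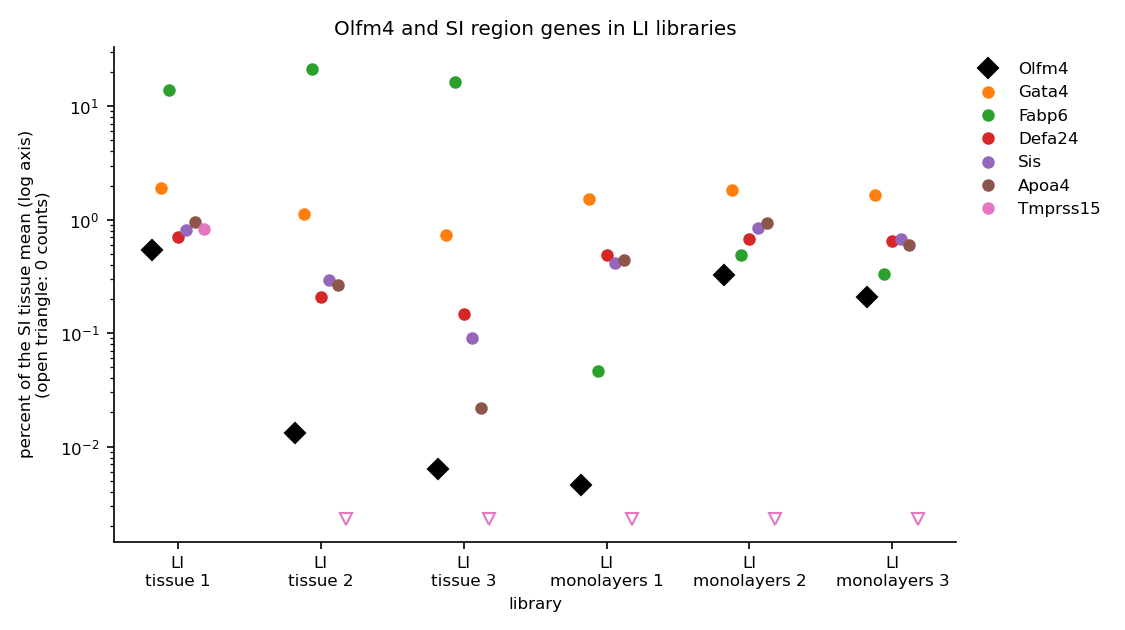
Level of Olfm4 (black diamonds) and of the 6 SI region genes (coloured points) in the 6 LI libraries, as percent of each gene's mean in SI tissue, on a log axis, with open triangles at the foot for 0 counts. Olfm4 was highest in the first LI tissue library (0.537%) and lowest in the first LI monolayer library (0.00458%).

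Lrig1, a transmembrane inhibitor of EGF receptor signalling that marks a wider set of stem and progenitor cells (chr6:94604529-94700158, minus strand), was at 6117, 6652 and 6784 normalized counts in SI tissue and at 5937, 6442 and 6417 in SI monolayers. It was at 10379, 9588 and 10270.5 in LI tissue and at 3034, 3059 and 3085 in LI monolayers. The SI groups overlapped and LI tissue stood above them. Lrig1 fell by 1.67 on the log2 scale in LI monolayers (SE 0.06, adjusted p = 2.73e-13), and the log2 fold change in SI monolayers was -0.02 (SE 0.05, adjusted p = 0.747). Its exons share 144 bases with Slc25a26 on the opposite strand, which had 9126 counts over the 12 libraries against 80945 for Lrig1. Whether reads were counted by strand is not given in the sources used here.

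Rnf43, the Frizzled ubiquitin ligase and a Wnt target (chr11:87662722-87735539, plus strand), was at 2815, 2892 and 2813 normalized counts in SI tissue and at 3439, 3461 and 3584.5 in SI monolayers. It was at 2570.1, 2370 and 2407 in LI tissue and at 1537, 1467 and 1618 in LI monolayers. The groups were apart, yet the log2 fold changes were small, 0.33 in SI (SE 0.05, adjusted p = 6.48e-05) and -0.62 in LI (SE 0.06, adjusted p = 4.42e-08). Znrf3, the related ligase (chr11:5276324-5444847, minus strand), was measured at 368, 361 and 575 normalized counts in SI tissue and at 519, 553 and 619 in SI monolayers. Znrf3 was at 370.2, 362 and 345 in LI tissue and at 432, 573 and 529 in LI monolayers. Its SI groups overlapped, and its log2 fold changes were 0.41 in SI (SE 0.16, adjusted p = 0.0429) and 0.55 in LI (SE 0.17, adjusted p = 0.00725), both short of the minimum for a call.

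Sox9, a transcription factor of crypt stem, progenitor and Paneth cells (chr11:112782224-112787760, plus strand), was at 1665.5, 1723 and 1824 normalized counts in SI tissue and at 2795, 2980.3 and 2679 in SI monolayers. It was at 2650.0, 2535 and 2104 in LI tissue and at 1136, 1400.3 and 1431 in LI monolayers. SI monolayers were highest and LI monolayers lowest, with no overlap between groups. The log2 fold changes had opposite signs, 0.73 in SI (SE 0.09, adjusted p = 3.45e-06) and -0.83 in LI (SE 0.09, adjusted p = 5.64e-07), and both missed the minimum for a call.

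**Figure D2:**
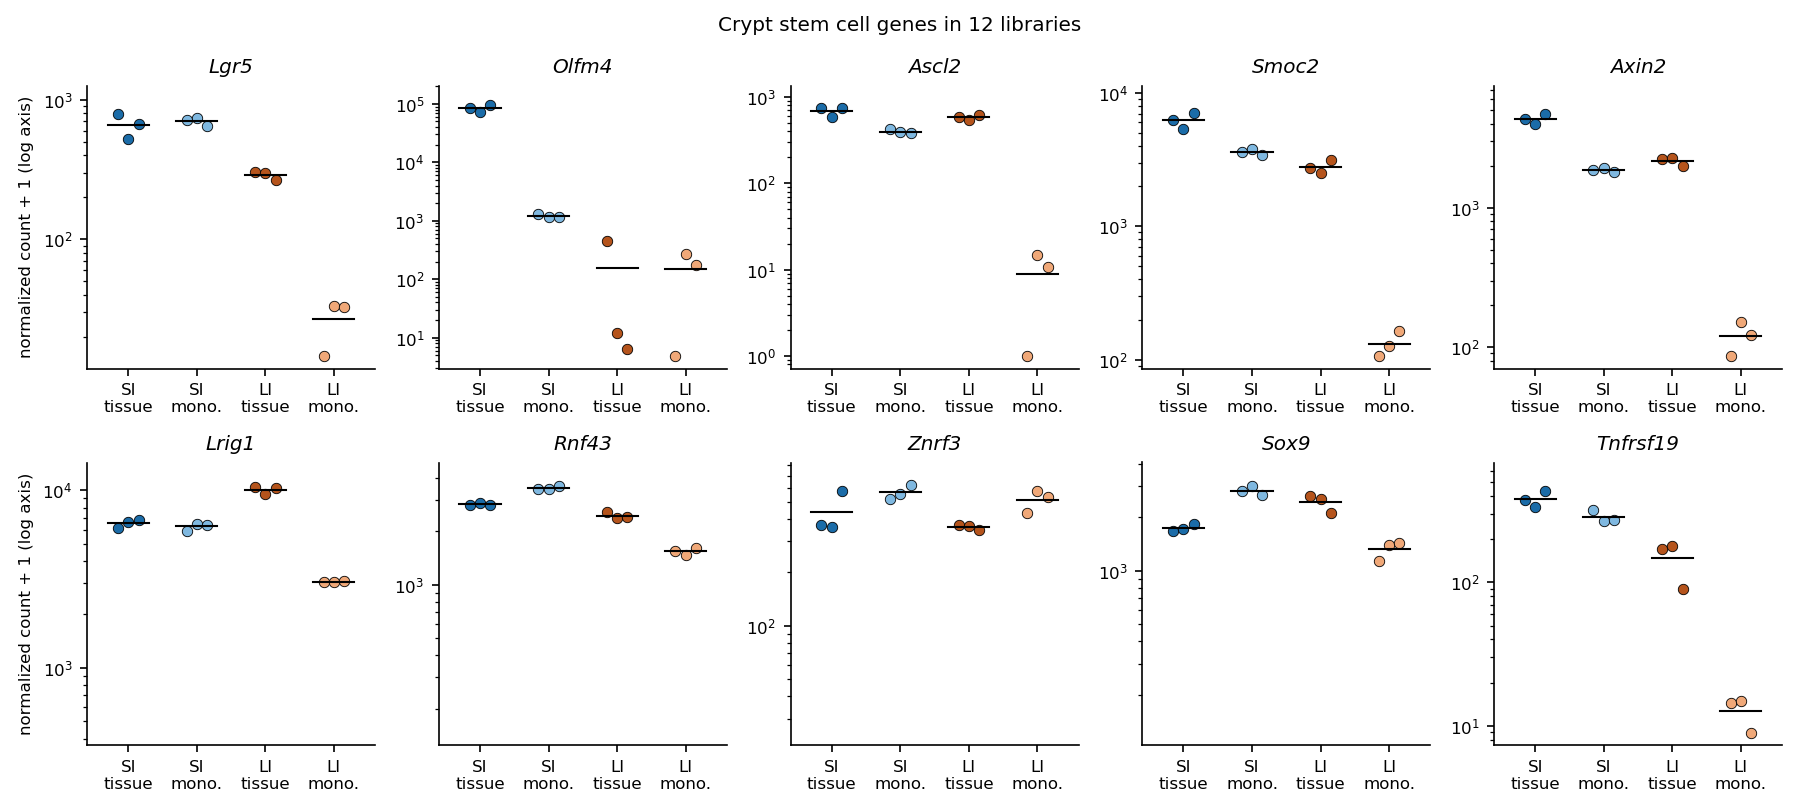
Normalized count plus 1 of each crypt stem cell gene on a log axis, with 1 point per library and a bar at the mean of the 3 libraries of each group. Lgr5, Ascl2, Smoc2, Axin2, Tnfrsf19, Lrig1, Rnf43 and Sox9 are lowest in LI monolayers. Znrf3 varies least between groups, and the groups of Olfm4 in LI overlap.

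In SI monolayers against SI tissue, 2 of the 10 genes were called lower and 0 higher, where 16.4% of the 19581 tested genes were called lower and 9.71% higher. With no minimum fold change, 4 were lower and 3 higher at an unadjusted p under 0.05. All of these also had an adjusted p under 0.05 by edgeR. DESeq2 called 2 lower and 0 higher. The median log2 fold change of the 10 genes was -0.21, beside -0.05 over all tested genes. In LI monolayers against LI tissue, 6 were called lower and 0 higher, where 23.5% of all tested genes were called lower and 14.5% higher. With no minimum fold change, 8 were lower and 1 was higher at an unadjusted p under 0.05, and all of these also had an adjusted p under 0.05. The share of all tested genes without that minimum was not counted in either region. DESeq2 called 6 lower and 0 higher. The median of the 10 genes was -2.56, beside -0.05 over all tested genes. The first LI monolayer library was lowest of its group in 8 of these 10 genes, Lgr5, Olfm4, Ascl2, Smoc2, Axin2, Lrig1, Znrf3 and Sox9. How often that library was lowest over all tested genes was not counted.

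**Figure D3:**
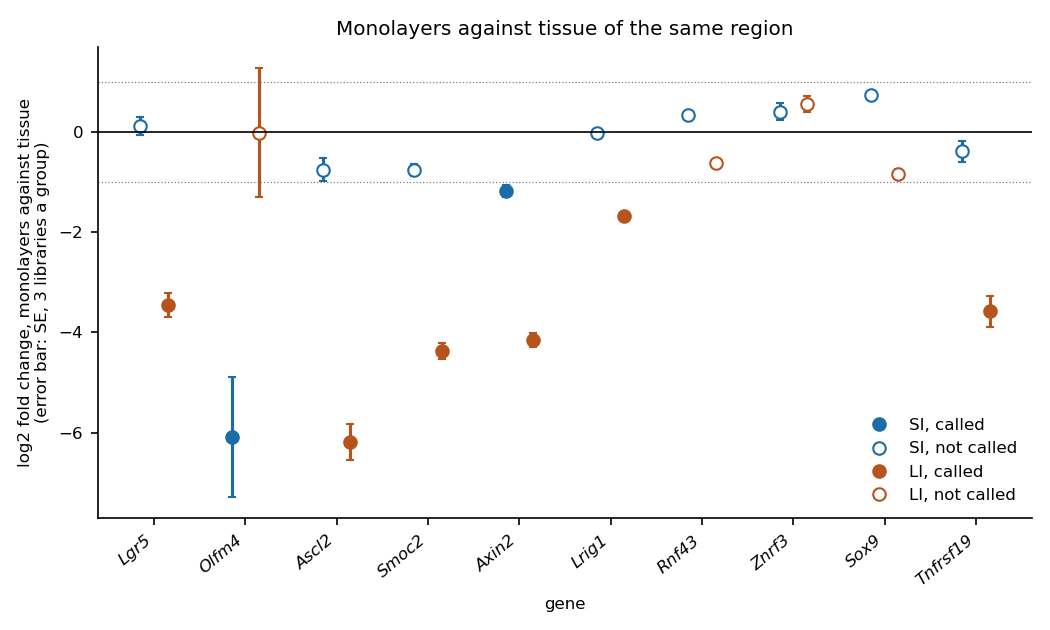
Log2 fold change of monolayers against tissue of the same region for the 10 genes, blue for SI and brown for LI, with SE bars from 3 libraries a group, filled points for calls and dotted lines at the minimum fold change. The brown points of Ascl2, Smoc2, Axin2, Tnfrsf19 and Lgr5 lie between -6.19 and -3.45, and the blue point of Olfm4 lies at -6.09.

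The difference between the regions in this response was tested as an interaction, the log2 fold change in SI minus that in LI. It was called above 0 for 7 of the 10 genes and below 0 for 1, where 11.4% and 8.51% of all tested genes were called in these directions. Ascl2 had the largest difference above 0, 5.43 (SE 0.45, adjusted p = 5.06e-07), and Olfm4 was the only one called below 0, at -6.07 (SE 1.68, adjusted p = 0.0169). The call of Olfm4 was lost without the second LI monolayer library (adjusted p = 0.0749) or without the third (adjusted p = 0.0526), and its value was -10.28 without the first LI tissue library. The interaction of Ascl2 ranged from 4.92 to 6.15 when 1 library was left out. Rnf43 differed by 0.96 (SE 0.08, adjusted p = 7.69e-08), short of the minimum, but passed it at 1.03 to 1.10 when any 1 of the monolayer libraries was left out. Znrf3 differed by -0.15 (SE 0.23, adjusted p = 0.644).

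Between the regions, SI tissue was higher than LI tissue for 5 of the 10 genes and lower for 0, beside 11.6% and 11.1% of all tested genes. By DESeq2 the counts were the same. With no minimum fold change, 2 were lower at an unadjusted p under 0.05. Olfm4 differed by 9.14 on the log2 scale (SE 1.39, adjusted p = 0.00052), and by 13.35 without the first LI tissue library. The other 4, Lgr5, Smoc2, Axin2 and Tnfrsf19, were higher in SI tissue by between 1.04 for Axin2 and 1.43 for Tnfrsf19, and Axin2 fell just short of 1 under several alternatives. Ascl2 did not pass the test between tissues (log2 fold change 0.28, SE 0.23, adjusted p = 0.330). Lrig1 and Sox9 had log2 fold changes of -0.59 and -0.44 in SI tissue against LI tissue, with adjusted p = 1.55e-07 and adjusted p = 0.000638. Between monolayers, 8 genes were higher in SI and 0 were lower, beside 12.4% and 8.88% of all tested genes. DESeq2 also called 0 lower, and with no minimum fold change 0 were lower at an unadjusted p under 0.05. Ascl2 again differed most (5.71, SE 0.37, adjusted p = 2.14e-08), with 5.12 to 6.36 when 1 library was left out. The monolayer libraries of SI and LI did not overlap in Olfm4, which did not pass the test (3.07, SE 1.17, adjusted p = 0.0569) but did in a fit of these 2 groups alone (3.08, adjusted p = 0.0325). Znrf3 did not pass it either (0.17, SE 0.16, adjusted p = 0.409). These comparisons share libraries with those of monolayers against tissue.

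Compared per length, as TPM from union exon lengths of GENCODE M21, the 10 genes differed widely in level. Olfm4 was the highest in SI tissue at 1001 ± 120.3 TPM (SD, n = 3), and Lrig1 the highest in the other groups, at 48.7 ± 2.41 TPM in monolayers of the SI, 70.9 ± 4.38 in tissue of the LI and 24.8 ± 0.0358 in monolayers of the LI. Lgr5 was low in SI tissue at 2.27 ± 0.404 TPM, and with the length of its longest transcript it was at 3.92 TPM. Ascl2 in LI tissue was at 14.0 ± 1.02 TPM and in LI monolayers at 0.219 ± 0.198. Summed over all 10 genes, the SI level was 1153 ± 128 TPM in tissue and 176 ± 4.64 in monolayers. In LI that sum was 160 ± 12.7 TPM in tissue and 57.4 ± 4.48 in monolayers. Summed over the genes other than Olfm4, the SI level was 153 ± 8.71 TPM in tissue and 158 ± 4.95 in monolayers. The LI level was 158 ± 9.25 TPM in tissue and 55.1 ± 2.54 in monolayers. Sox9 at 14.5 ± 1.66 TPM and Rnf43 at 10.6 ± 0.474 made up, with Lrig1, most of the last sum.

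Over the 12 libraries, the patterns of single genes were set beside those of all others with at least 1 mean CPM (13457 genes), by the root mean square difference of centred log2 CPM. Nearest to Lgr5 were 9130230L23Rik (0.22), Gstm6 (0.41) and Clca4b (0.42). Gstm6 belongs to a multigene family of glutathione S-transferases whose reads may be split among copies. Clca4b, of the calcium-activated chloride channel regulator family, fell by 4.02 on the log2 scale in LI monolayers. Nearest to Ascl2 were Gm45912 (0.68), Aadac (0.70) and Ugt2b35 (0.76), the last also of a large family. Nearest to Olfm4 were Enpp7 (1.07), Slc28a1 (1.07) and Lct (1.20), and Lct and Enpp7 are brush border enzymes of the SI. Gstm6, Ugt2b35 and Lct were not among the nearest 3 on the scale of log2 normalized counts plus 1. Among the 10 genes themselves, the closest pair was Rnf43 with Sox9 (0.27), followed by Smoc2 with Axin2 (0.35).

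Genes of other lists were counted in the same way, with no test of the lists. Of all tested genes, 9.71% were called higher and 16.4% lower in SI monolayers, and 14.5% and 23.5% in LI monolayers. Of 16 other genes of the Lgr5 stem cell signature, 6 were called lower and 1 higher in SI monolayers, and 8 lower and 2 higher in LI monolayers. Gkn3, a secreted gastrokine, fell by 6.32 on the log2 scale in SI (SE 0.64, adjusted p = 5.09e-07). Aqp4, a water channel, fell by 8.32 in LI (SE 0.17, adjusted p = 5.12e-13), from 41805 ± 2486 to 127 ± 15.8 normalized counts (SD, n = 3). Phgdh, the first enzyme of serine synthesis, rose by 2.93 in SI (adjusted p = 5.78e-13) and by 2.33 in LI (adjusted p = 1.63e-12).

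Of 20 tested Wnt receptors and signal transducers, 1 was called higher and 2 lower in SI monolayers, and 4 higher and 2 lower in LI monolayers. The 4 became 2 by DESeq2, with upper quartile scaling or when any 1 LI monolayer library was left out, and the 2 lower in SI became 1 without the third SI tissue library. The Frizzled receptor Fzd7 rose by 1.51 in SI and Fzd1 by 1.26 in LI on the log2 scale (SE 0.07 and 0.10). Tcf7l1, a TCF factor that often represses, fell by 1.27 in SI (SE 0.34) and fell by 2.77 in LI (SE 0.18). Its mean was low in SI, 26.9 normalized counts in tissue and 11.1 in monolayers, against 1775 and 252 in LI (n = 3). Of 13 tested Wnt targets outside the 10 genes, 4 were called higher and 2 lower in SI monolayers, and 5 higher and 1 lower in LI monolayers. The last count was 4 without the third LI tissue library, 2 without the second LI monolayer library, 3 without the third, and 3 by DESeq2. Cd44, an adhesion receptor, rose by 2.05 in SI (SE 0.14, adjusted p = 9.12e-08), and Apcdd1, a Wnt inhibitor, rose by 3.23 in LI (SE 0.31, adjusted p = 1.82e-07). Sp5, a zinc finger factor, fell by 1.64 in SI (SE 0.20, adjusted p = 4.83e-06), and Wif1, a Wnt inhibitor, fell by 1.66 in LI (SE 0.47, adjusted p = 0.00498). Myc and Ccnd1, which drive growth and cell cycle entry, were named after their values were seen and rose in both regions. Myc went from 1736 ± 169 to 14966 ± 419 normalized counts in LI (SD, n = 3), by 3.15 on the log2 scale (SE 0.07, adjusted p = 5.2e-15), while Axin2 fell there.

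Of 4 reserve stem cell genes, Clu, a chaperone gene of regenerating crypts, rose by 2.81 in SI monolayers (SE 0.46, adjusted p = 0.00074) and by 3.33 in LI monolayers (SE 0.48, adjusted p = 0.000233). Bmi1, a Polycomb subunit named after its values were seen, rose by 1.62 in LI (SE 0.06), and Hopx, a homeodomain-only protein, fell by 1.93 (SE 0.08, adjusted p = 3.81e-12). Of 12 proliferation genes, 0 were called by edgeR or DESeq2 in SI monolayers. With no minimum fold change, 11 were higher there by edgeR, at an adjusted as at an unadjusted p under 0.05. In LI monolayers 2 were called higher, near the 14.5% of all tested genes. These were Mcm6, by 1.52 (SE 0.08), and Mcm2, by 1.19 (SE 0.08), both parts of the replication helicase. Of 12 absorptive differentiation genes, 6 were called lower in SI monolayers and 5 in LI monolayers, beside 16.4% and 23.5% of all tested genes. The carbonic anhydrase gene Car4 fell by 6.62 in SI (SE 0.21) and fell by 6.02 in LI (SE 0.21). The anion exchanger gene Slc26a3 fell by 1.21 in SI (SE 0.11) and fell by 1.81 in LI (SE 0.11).

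**Figure D4:**
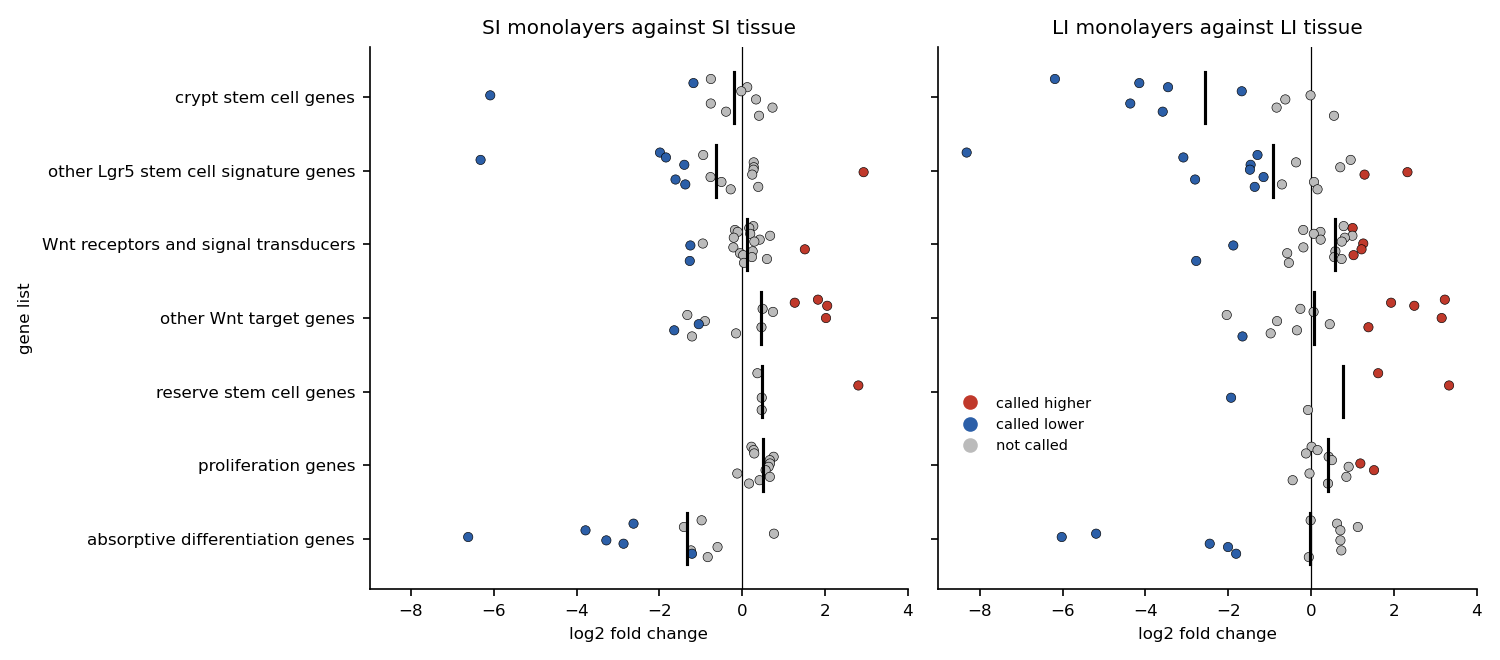
Log2 fold change of monolayers against tissue in SI and LI for each tested gene of the 7 lists, red for called higher, blue for called lower and grey for not called, with a black bar at each list's median. In LI the crypt stem cell genes have a median of -2.56, and the other Wnt targets hold 5 red points and 1 blue point.

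Genes of other cell types were counted in the same way. In SI monolayers 9.71% of all tested genes were called higher and 16.4% lower, and in LI monolayers 14.5% and 23.5%. Of 12 tuft cell genes, 12 were called lower in SI monolayers and 11 in LI monolayers, and of 12 goblet cell genes, 5 and 10 were. A further 1 goblet cell gene was called higher in SI monolayers. Of 12 mesenchymal genes, 2 were called lower in SI monolayers, near the share of all tested genes, and 3 were higher and 4 lower in LI monolayers. Of 12 enteroendocrine genes, 2 were called higher and 1 lower in SI monolayers, and 7 were called higher in LI monolayers. Of 12 immune genes, 10 were called lower in SI monolayers and 11 in LI monolayers. Paneth cells, which border the stem cells in SI crypts, had 1 of 12 genes called lower in SI monolayers and 2 in LI monolayers. The part of the cell mixture in the levels of the 10 genes was not tested.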

How the data were processed

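The authors aligned paired-end reads to GRCm38 with STAR 2.7.9a and, with featureCounts 2.0.2, obtained deposited counts per gene of GENCODE genes. In the deposited normalized signal, the authors scaled each library by 1 size factor from DESeq2 (given as 3.13 in the submitters' processing notes). Levels are that signal. Fold changes come from the counts with edgeR 4.0.16 in R 4.3.3 (filterByExpr, TMM, robust quasi-likelihood fits of 4 group means, Benjamini-Hochberg adjustment over 19581 genes in each of 5 comparisons). A gene was called with an adjusted p under 0.05 and a log2 fold change of at least 1 in size. TPM used exon lengths of GENCODE M21 on GRCm38, which held 55227 of 55487 gene identifiers. The members and gene lists were chosen with earlier results of these data known. All 10 members were named, together with the 3 genes of most similar pattern to Lgr5, Ascl2 and Olfm4, and the largest and smallest called log2 fold change of each list in each region. Scripts were tested on simulated data. The alternatives were DESeq2 1.42.0 (Wald test), upper quartile scaling, no filter on low counts, at least 10 counts in each library, calls without a fold change limit, fits of the compared groups alone, replicate number as a block, each library left out, log2 of normalized counts plus 1, and the longest transcript.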

Additional observations from a re-analysis of the deposited data

Results flagged for a closer look

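The response of monolayers relative to tissue differed between the regions for 8 of the 10 crypt stem cell genes by the interaction test (edgeR, adjusted p under 0.05 and a difference of at least 1). Over all tested genes, 11.4% were called above 0 and 8.51% below 0. The difference, SI minus LI on the log2 scale, was 3.58 for Lgr5, 5.43 for Ascl2, 3.61 for Smoc2, 2.97 for Axin2, 1.65 for Lrig1, 1.56 for Sox9 and 3.19 for Tnfrsf19. It was -6.07 for Olfm4, whose SI libraries fell while its LI libraries scattered. By the same test, this Olfm4 call was lost without LI monolayer library 2 (adjusted p = 0.0749) or library 3 (adjusted p = 0.0526). Groups of 3 libraries were not screened for outlying samples.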

How the results depend on the processing

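Log2 fold changes of the 10 genes kept their direction and their side of the threshold in 609 of 635 recomputed values. With no minimum fold change, the genes called higher and lower in SI monolayers numbered 3 and 4, 1 was higher in LI monolayers, and 2 were lower in SI than in LI tissue. A minimum of 10 counts in every library removed Olfm4, Ascl2 and Tnfrsf19, and 1 was then called lower in SI monolayers, 4 lower in LI monolayers, 2 higher in SI tissue than in LI tissue (Axin2, at 0.995, was also lost), 5 with an interaction above 0 and 0 below. Leaving out 1 library moved the count called higher in LI monolayers between 0 and 1 (1 without LI tissue library 1, Olfm4) the count with an interaction below 0 between 0 and 1, and the count above 0 between 7 and 8 (Rnf43). Directions turned only near 0 or in Olfm4. Leaving out 1 library gave between -0.027 (without SI tissue library 2) and 0.27 for Lgr5 in SI. Lrig1 in SI was 0.0048 with only those 2 groups, 0.014 without SI tissue library 3 and -0.066 to 0.053 over the single libraries left out, the last without SI monolayer library 1. Olfm4 in LI ranged from -0.82 to 4.19 (without LI tissue library 1), with 0.50 without LI monolayer library 1. The interaction of Znrf3 ranged from -0.27 to 0.12, with 0.12, 0.015 and 0.042 without SI tissue library 3, SI monolayer library 1 and LI monolayer library 2. The cause was not tested. Axin2 between tissues, at 1.04, fell short of 1 under 6 alternatives (lowest 0.97), among them upper quartile scaling. Upper quartile scaling moved the median over all genes in LI from -0.05 to -0.17. The interaction of Rnf43 passed the minimum under 7 of 17 alternatives, upper quartile scaling (1.04) and each monolayer library left out. Ascl2 in LI ranged from -6.87 to -5.64 when 1 library was left out, and Olfm4 between monolayers from 2.50 to 3.81.

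Replicate numbers showed no visible link between libraries (correlations of same-numbered deviations between -0.0516 and 0.0563), which does not show that libraries were unpaired. By the study's methods, LI monolayers were made from the mice that also gave SI monolayers. Numbers are not tied to mice, and tests between the regions treated libraries as independent. With the replicate block, 6 genes were called lower in LI monolayers, no call of the 10 genes changed, and Olfm4 in LI was 0.26 (adjusted p = 0.894). Depth limits Lgr5, Ascl2 and Tnfrsf19 in LI monolayers, where a library held at most 32 counts.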
